A study of Homo sapiens with 6 samples.

Results

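The mRNA levels of 10 genes of regulated vesicle fusion were examined in A549 cells, an established human lung adenocarcinoma cell line, upon knock-down of the histone methyltransferase subunit KMT9α. The set holds 5 synaptotagmins (SYT1, SYT7, SYT11, SYT12 and SYT13), 4 SNARE genes (SNAP25, SNAP23, VAMP2 and STX1A) and REST, which encodes a repressor of neuronal genes. These 10 of the 23180 gene symbols in the deposited table were selected by name, with the fold changes of this same comparison already known. Their differences between the groups are therefore given as a description and carry no test. All samples were A549 cells of genotype WT at passage 11, taken 3 days after transfection with 65 nM siRNA. The 3 siControl samples received a control siRNA and the 3 siKMT9α#1 samples received a single siRNA against KMT9α, so 1 siRNA and 1 cell line stand for the knock-down. Where a symbol had several transcripts, the one with the highest total of counts stood for the gene.

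N6AMT1, the gene of KMT9α, had 10.2, 10.9 and 11.4 CPM (counts scaled to the size of the library) in siControl replicates 1 to 3 and 2.87, 3.22 and 3.35 CPM in siKMT9α#1 replicates 1 to 3. Its log2 fold change, which is positive throughout where siKMT9α#1 was higher, was -1.77 ± 0.12 (standard error). Total counts over the transcripts used were 15551780 to 18568634 in siControl and 13740098 to 19832394.5 in siKMT9α#1. Of the genes 13877 had enough counts to be tested, and 9 of the 10 members were among them, with SYT11 below the count filter. Much of the transcriptome differed between the groups. The study's threshold, a P under 1e-08 together with a log2 fold change above 0.26 or below -0.26, was passed by 24.2% of the genes tested, 13.5% higher and 10.7% lower in siKMT9α#1. Scaling by total counts instead of by TMM factors shifted the median log2 fold change of all genes by -0.11, and 1516 genes were higher and 1862 lower at that threshold, against 1878 and 1479 with TMM. At an adjusted p under 0.05, 37.1% were higher and 38.5% were lower. The values of the siControl and siKMT9α#1 samples did not overlap for 77.0% of the genes tested, 37.6% higher and 39.4% lower.

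Membrane fusion in exocytosis is driven by SNARE proteins. A vesicle R-SNARE such as VAMP2 zippers with syntaxin-1 and SNAP25 of the plasma membrane into a helical bundle that pulls both membranes together. Synaptotagmins carry a pair of C2 domains, and those of SYT1 and SYT7 bind calcium and couple its entry to fusion, whereas other family members have lost calcium binding. SNAP23 takes the place of SNAP25 in many tissues outside the brain, lung epithelium among them. REST is a zinc-finger protein that binds a conserved DNA element in neuronal genes and recruits CoREST, SIN3 and histone-modifying enzymes. SNAP25 is among its textbook targets, and neuronal differentiation is accompanied by loss of REST.

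The DNA that bears on REST was read from the genome first, since the expression of SNAP25 and SYT7 is set beside it further on. The core letters of the REST element, TTCAGCACC followed by 2 free bases and GGACAG, were searched on both strands of GRCh37, allowing 1 mismatch among the 15 fixed letters. The whole genome held 251 sites without a mismatch and 1374 with at most 1. Of the 10 members, only SNAP25 and SYT7 held a site in their transcribed span, and all 3 sites lay in introns of the annotated transcripts. The SNAP25 site at chr20:10200320-10200336 (plus strand) lies 843 bases after the transcript start and has no mismatch. The SYT7 site at chr11:61334826-61334842 (minus strand) lies 13502 bases after the transcript start without a mismatch, and a neighbour at chr11:61334866-61334882 (minus strand), at 13462 bases, has 1. The sites are shown 5′ to 3′ on the strand of the gene, with the searched element and its free bases in capitals:
SNAP25 intron: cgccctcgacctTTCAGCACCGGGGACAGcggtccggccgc
SYT7 intron, no mismatch: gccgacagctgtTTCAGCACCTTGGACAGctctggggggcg
SYT7 intron, 1 mismatch: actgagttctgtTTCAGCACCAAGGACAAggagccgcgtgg
Genomic windows as long as the SNAP25 span held a site with at most 1 mismatch in 3.86% of cases and windows as long as the SYT7 span in 2.98%. For the much longer SYT1 span the share was 20.7%, and SYT1 itself held none. Within 2500 bases of the transcript start, 65 of 13639 genes tested (0.477%) had such a site and 15 (0.11%) had one without a mismatch, SNAP25 being the only member among them. A match of letters does not show that REST is bound, and a window without a match says nothing about REST.

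A start region of SYT1 is shown because no other member differed as much between the groups. The listed SYT1 transcripts have different starts, and the counts do not tell which was in use, as described below. RefSeq promoter windows, 300 bases that lie mostly upstream of a start, were at hand for SYT1, SYT11, SNAP23, VAMP2, STX1A and REST, and SYT7, SYT12, SYT13 and SNAP25 had no entry. The SYT1 window lies at chr12:78864524-78864823 (plus strand) of GRCh38.p14, a later build than that of the counts, and its capitals mark CCAAT letters, the core of the CCAAT box, on either strand:
SYT1 promoter: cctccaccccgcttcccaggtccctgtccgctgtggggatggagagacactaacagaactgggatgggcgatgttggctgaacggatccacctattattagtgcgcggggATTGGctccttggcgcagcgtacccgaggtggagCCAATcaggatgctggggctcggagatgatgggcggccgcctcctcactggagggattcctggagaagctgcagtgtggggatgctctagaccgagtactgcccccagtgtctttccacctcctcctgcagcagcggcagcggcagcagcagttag
SYT1 held CCAAT at 2 places, starting at bases 111 and 145 of the window, and SNAP23 at 1, while the windows of SYT11, VAMP2, STX1A and REST held none. CCAAT occurs in 34.6% of the 35116 RefSeq windows. GGGCGG, the letters of a GC box, occurred 1 time in SYT1, 7 times in STX1A, 5 and 4 times in the VAMP2 windows and 3 and 2 times in the REST windows. The VAMP2 windows overlap, and those 4 matches are among the 5. GGGCGG was in neither SYT11 nor SNAP23, and is found in 45.0% of all windows. TATAAA, the letters of a TATA box, was in none of the members' windows and in 11.5% of all windows. CACGTG (7.26% of all windows) and TGACGTCA (1.85%) were in none either, and TGANTCA (7.71%) was in 1 of the REST windows.

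All 10 members had groups that did not overlap. SYT1, SYT11, SYT13, SNAP25, STX1A and REST were higher in every siKMT9α#1 sample, and SYT7, SYT12, SNAP23 and VAMP2 were lower in every one. Against a background of 77.0% of all genes with such groups, and with members picked from this very comparison, the count describes the set and is no evidence about it. The sizes of the differences spread widely, as the plot of fold changes shows. SYT1 stood at one end with 17.1 times its siControl level, and SYT12 at the other end with 0.393 times. Among all genes tested the median size of a log2 fold change was 0.47, and SYT13, STX1A and REST were below it. In bulk RNA, a change in the number of cells that carry an mRNA and a change of its amount per cell cannot be told apart.

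**Figure D1:**
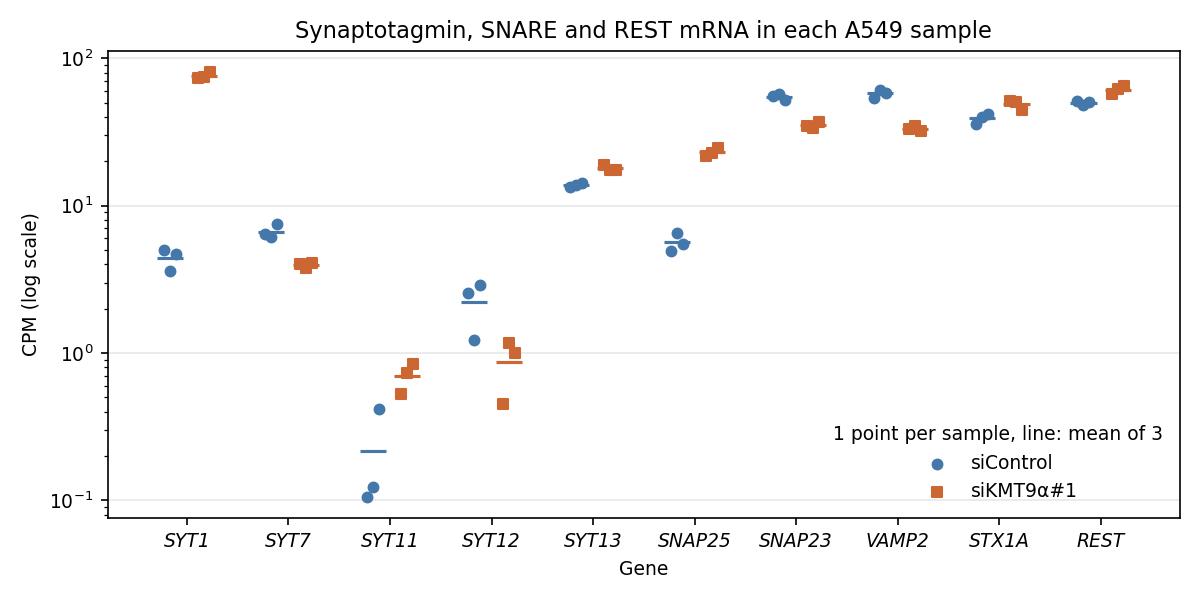
CPM on a log axis for each of the 10 genes, with 1 point per sample (circles, siControl; squares, siKMT9α#1) and a line at the mean of 3 samples. SYT1 lies between 3.58 and 4.99 CPM in siControl and between 73.5 and 80.7 in siKMT9α#1, and the points of the groups do not overlap for any gene.

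**Figure D2:**
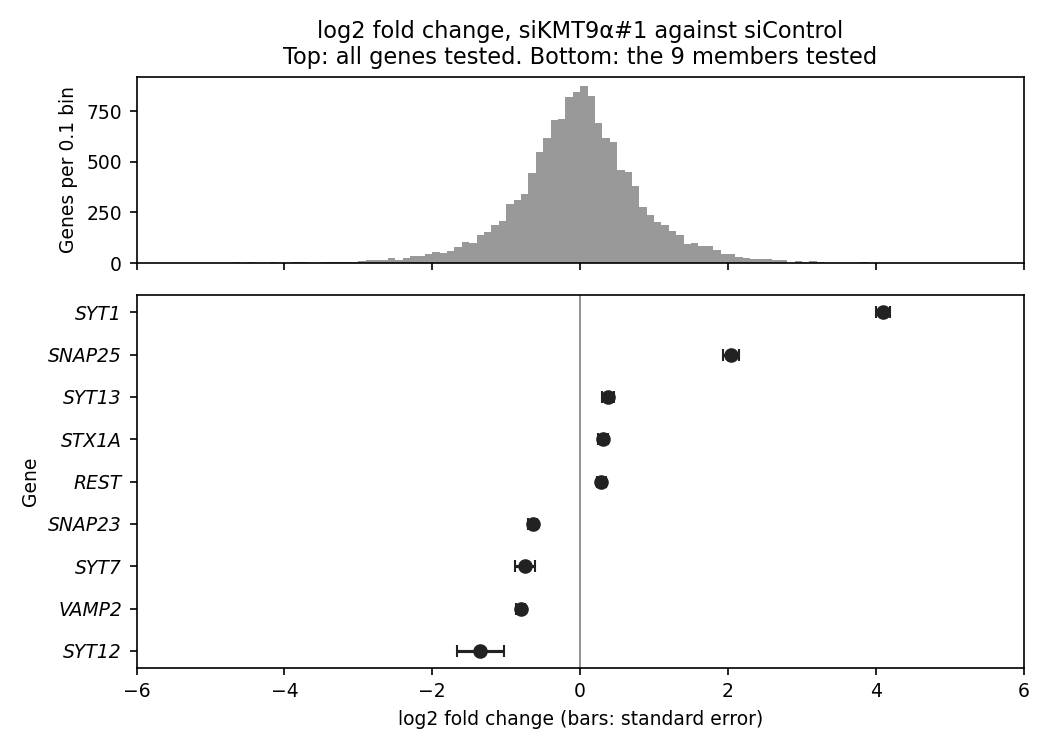
Top, the number of genes tested per 0.1 bin of log2 fold change (siKMT9α#1 against siControl). Bottom, the log2 fold change of the 9 members tested with bars of 1 standard error, from 4.10 for SYT1 to -1.35 for SYT12, where the bar is widest.

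SYT1 encodes the calcium sensor of fast transmitter release at synapses. Its transcript NM_005639 lies at chr12:79258449-79845788 (plus strand, hg19), a span that also contains the microRNA gene MIR1252. The 3 siControl replicates held 94.5, 58.5 and 90.5 counts of it, and the 3 siKMT9α#1 replicates held 971.5, 1019 and 1542.5. Scaled to the libraries these were 4.99, 3.58 and 4.68 CPM against 73.5, 74.5 and 80.7 CPM. The 3 siKMT9α#1 samples thus lay close together and far above all siControl samples, of which replicate 2 was lowest. The mean went from 4.42 ± 0.74 to 76.2 ± 3.90 CPM (SD, n = 3 each) at a log2 fold change of 4.10 ± 0.09 (standard error). Of all genes tested, 0.187% had a larger size of log2 fold change.

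The difference was carried by every listed SYT1 transcript. NM_001135805 in place of NM_005639 gave a log2 fold change of 4.11, and NM_001135806 gave 4.14. NM_001135806 starts at 79439433, far downstream of the start of NM_005639, so it does not contain the upstream exons. Its counts were 94.2%, 94.9% and 89.0% of those of NM_005639 in siControl and 95.6%, 96.5% and 96.2% in siKMT9α#1. Nearly all counts of the gene therefore fell on exons that the transcripts share, in both groups, and the deposited counts do not tell which start was in use.

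SYT7 encodes a calcium sensor of high affinity that serves slow and asynchronous release and the exocytosis of lysosomes. Its transcript NM_001252065 (chr11:61281188-61348344, minus strand, hg19) had 6.37, 6.11 and 7.49 CPM in siControl and 4.01, 3.80 and 4.08 CPM in siKMT9α#1, from 120.5, 99 and 143.5 against 53, 52 and 77.5 counts. All siKMT9α#1 samples were lower than the lowest siControl sample, at a log2 fold change of -0.75 ± 0.13 (standard error). SYT7 thus differed in the opposite direction from SYT1, and also from SNAP25, the other member with REST element letters. The ratio of SYT1 to SYT7, each per kb of transcript, was 0.886 ± 0.139 in siControl and 25.6 ± 1.04 in siKMT9α#1 (SD, n = 3 each).

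SYT13 lacks the residues for calcium binding and is known from endocrine cells as well as from brain. NM_001247987 (chr11:45261853-45307884, minus strand, hg19) had 13.3, 13.8 and 14.1 CPM in siControl and 18.7, 17.5 and 17.5 CPM in siKMT9α#1. The samples within each group differed little, and the log2 fold change was 0.38 ± 0.08 (standard error). With offsets for GC content and length it was 0.14, so the size of this difference depended on the correction.

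SYT12, another member without calcium binding, had few counts. NM_001177880 (chr11:66790190-66818334, plus strand, hg19) had 48.5, 20 and 56.5 counts in siControl and 6, 15.5 and 19 counts in siKMT9α#1, or 2.55, 1.23 and 2.91 against 0.453, 1.17 and 0.994 CPM. The siControl replicate 2 came close to the siKMT9α#1 replicate 2, so the groups were barely apart. The log2 fold change was -1.35 with the widest standard error of the members tested, 0.32.

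SYT11, which also lacks calcium binding and acts in vesicle recycling, was close to the limit of detection. NM_152280 (chr1:155829260-155854990, plus strand, hg19) had 2, 2 and 7.5 counts in siControl and 7, 10 and 16 counts in siKMT9α#1. In CPM the samples ran from 0.106 to 0.416 in siControl and from 0.529 to 0.837 in siKMT9α#1. It did not pass the filter on low counts and has no fold change here.

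SNAP25 encodes the plasma membrane SNARE of neurons and endocrine cells that contributes a pair of helices to the fusion bundle. NM_003081 lies at chr20:10199477-10288066 (plus strand, hg19), with the REST element shown above in an intron. The 3 siControl replicates held 92.5, 105 and 105.5 counts of it, and the 3 siKMT9α#1 replicates held 285.5, 309.5 and 469.5. The corresponding CPM were 4.89, 6.48 and 5.51 against 21.6, 22.7 and 24.6. Every siKMT9α#1 sample was more than 3 times as high as every siControl sample. The log2 fold change was 2.04 ± 0.10 (standard error), and 3.53% of all genes tested had a larger size. The other SNAP25 transcript, NM_130811, gave 2.09 in its place. The antisense gene SNAP25-AS1 overlaps this span and had at most 1.5 counts in a siControl sample and at most 3 in a siKMT9α#1 sample. Whether the counting used the strand is not given in the sources used here.

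SNAP23, the relative of SNAP25 in non-neuronal cells, went the other way. NM_003825 (chr15:42787504-42825259, plus strand, hg19) had 55.3, 56.8 and 51.8 CPM in siControl and 34.5, 33.8 and 36.7 CPM in siKMT9α#1. The groups were well apart, at a log2 fold change of -0.64 ± 0.06 (standard error). The ratio of SNAP25 to SNAP23 per kb of transcript was 0.114, 0.147 and 0.137 in the siControl samples and 0.808, 0.864 and 0.863 in the siKMT9α#1 samples. The mean ratio was 0.133 ± 0.017 in siControl and 0.845 ± 0.032 in siKMT9α#1 (SD, n = 3 each), so SNAP25 mRNA came near the level of SNAP23 mRNA without exceeding it.

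VAMP2, the R-SNARE of synaptic vesicles, was the most abundant member per kb in siControl. NM_014232 (chr17:8062465-8066293, minus strand, hg19) had 53.9, 60.6 and 58.4 CPM in siControl and 32.9, 34.5 and 31.9 CPM in siKMT9α#1. All siKMT9α#1 samples were lower than all siControl samples, at a log2 fold change of -0.80 ± 0.06 (standard error). VAMP3, the widely expressed R-SNARE of recycling endosomes, rose, and the ratio of VAMP2 to VAMP3 per kb was 0.959 ± 0.061 in siControl and 0.390 ± 0.020 in siKMT9α#1 (SD, n = 3 each).

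STX1A encodes the syntaxin that pairs with SNAP25 and VAMP2. NM_004603 (chr7:73113535-73134017, minus strand, hg19), whose span holds the microRNA gene MIR4284, had 36.0, 40.0 and 41.9 CPM in siControl and 51.2, 50.1 and 44.8 CPM in siKMT9α#1. The gap between the highest siControl and the lowest siKMT9α#1 sample was small. The log2 fold change was 0.30 ± 0.07 (standard error), 0.20 with the library size alone and 0.50 with offsets for GC content and length. STX4 is a syntaxin of non-neuronal plasma membranes. The ratio of STX1A to STX4 per kb was 0.427 ± 0.020 in siControl and 1.07 ± 0.08 in siKMT9α#1 (SD, n = 3 each). STX4 itself went from 43.7 to 21.7 CPM per kb and STX1A from 18.7 to 23.1. STX3, another plasma membrane syntaxin, had 39.2 CPM per kb in siControl and 41.8 in siKMT9α#1, above STX1A in both groups.

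REST mRNA was not lower upon knock-down. NM_005612 (chr4:57774042-57802010, plus strand, hg19) had 51.1, 48.5 and 50.5 CPM in siControl and 57.0, 61.4 and 64.5 CPM in siKMT9α#1. All siKMT9α#1 samples were above all siControl samples, at a log2 fold change of 0.29 ± 0.06 (standard error). With the library size alone it was 0.18, and with offsets for GC content and length it was 0.04. REST protein and its binding to DNA were not measured in these samples.

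Levels of different genes were compared as CPM per kb of the transcript used. In siControl the order was VAMP2 (26.9), SNAP23 (20.8), STX1A (18.7), REST (6.83), SNAP25 (2.76), SYT13 (2.57), SYT7 (1.04), SYT1 (0.922), SYT12 (0.622) and SYT11 (0.041). The samples of SNAP23 and STX1A overlapped, as did those of SNAP25 and SYT13, of SYT7 and SYT1, and of SYT1 and SYT12. In siKMT9α#1 the order on the same scale was STX1A (23.1), SYT1 (15.9), VAMP2 (15.4), SNAP23 (13.3), SNAP25 (11.3), REST (8.32), SYT13 (3.34), SYT7 (0.621), SYT12 (0.243) and SYT11 (0.133). There the samples of SYT1 and VAMP2 overlapped, and those of SYT12 and SYT11. SYT1 mRNA was thus within the range of VAMP2, SNAP23 and STX1A mRNA in siKMT9α#1, and SNAP25 mRNA stayed below all of them. VAMP2 and STX1A, although SNAREs of neurons by name, were among the 3 members with the highest levels per kb in siControl A549 cells.

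Within the 17 synaptotagmins of the table, SYT1 made up 8.26%, 6.20% and 7.80% of the summed CPM per kb in the siControl samples. In the siKMT9α#1 samples it made up 55.0%, 54.9% and 57.0%. SYT17 was the most abundant synaptotagmin in siControl at 43.9 ± 3.85% and SYT13 the next at 20.7 ± 0.882% (SD, n = 3 each). In siKMT9α#1 their shares were 21.4 ± 0.886% and 11.7 ± 0.774%. The shares of SYT17 and SYT13 were smaller although their own levels per kb were not, because the sum over the family went from 12.4 ± 0.292 to 28.6 ± 0.865 CPM per kb. Within the 4 genes of the SNAP25 family the sum was nearly level, 45.6 ± 1.67 against 49.4 ± 0.613 CPM per kb. SNAP25 took 6.03 ± 0.691% of it in siControl and 22.8 ± 1.22% in siKMT9α#1, and SNAP23 took 45.6 ± 1.12% and 27.0 ± 0.961%.

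**Figure D3:**
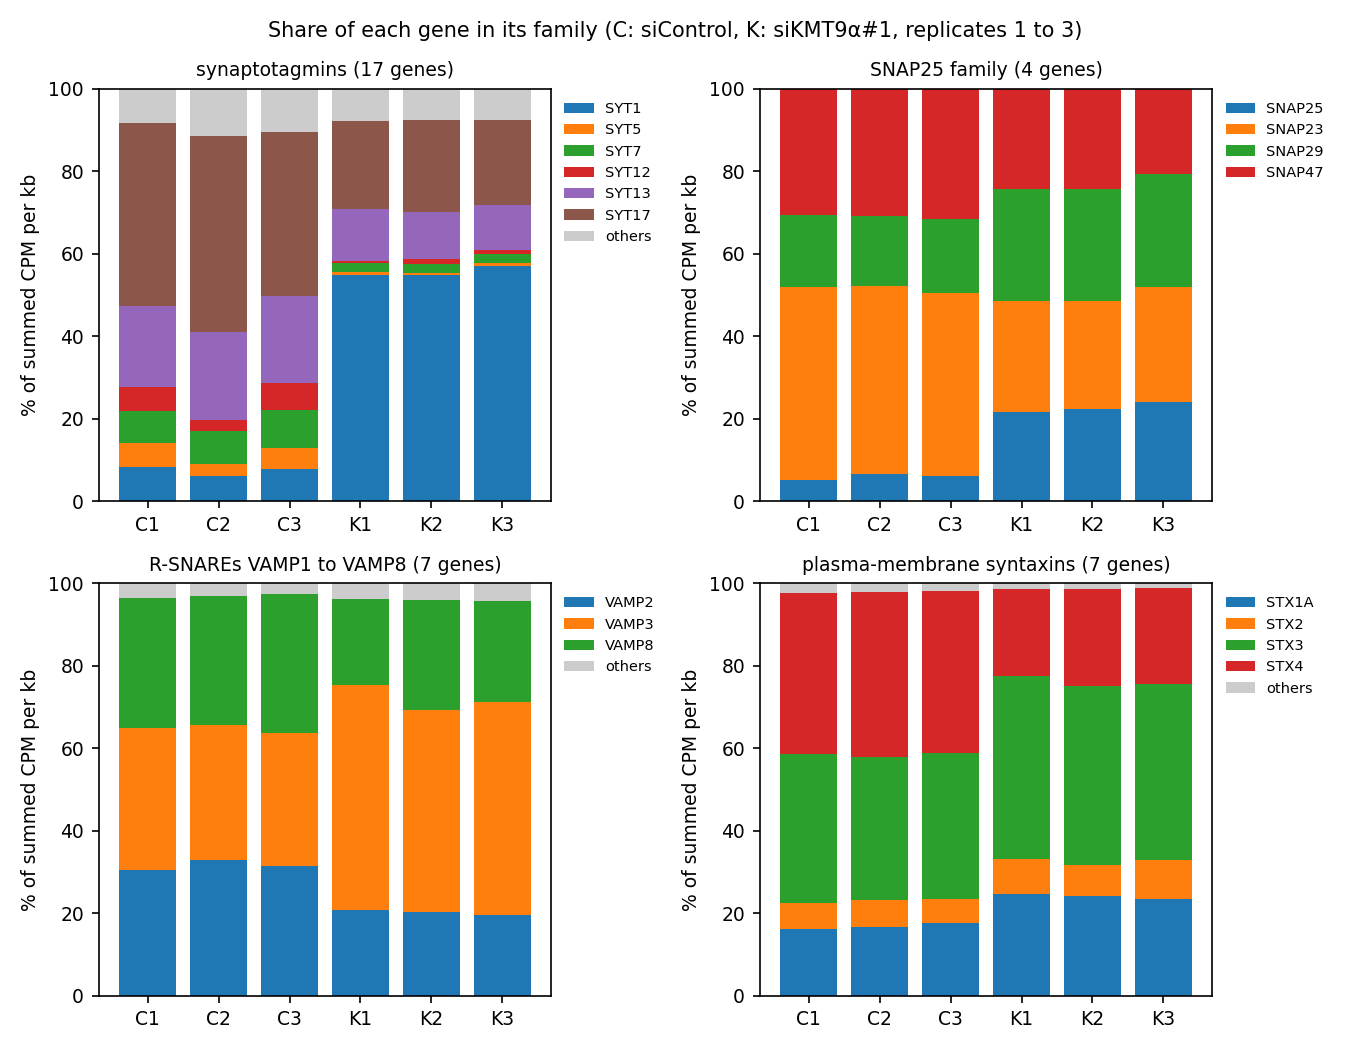
Share of each gene in the summed CPM per kb of its family, in % per sample (C, siControl; K, siKMT9α#1; replicates 1 to 3). SYT1 takes 6.20% to 8.26% of the synaptotagmin sum in siControl and 54.9% to 57.0% in siKMT9α#1, and SNAP25 takes 5.31% to 6.69% and 21.7% to 24.1% of its family.

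The 12 synaptotagmins outside the set did not share the size of the SYT1 difference. Of these, 5 were tested and 0 passed the study's threshold by edgeR's quasi-likelihood test, while DESeq2 passed 1. Over all genes tested the share by the edgeR test was 24.2%, so 0 of 5 genes says little. At an adjusted p under 0.05, SYT6 and SYT15 were higher and SYT5 and SYT14 lower, beside 37.1% and 38.5% of all genes tested. These genes are named here after their values were seen. SYT6 rose from 1.06 ± 0.308 to 3.54 ± 0.488 CPM (SD, n = 3 each; log2 fold change 1.74), and it has a REST element without a mismatch near its start. SYT5, which was lower (log2 fold change -1.57), has a site with 1 mismatch near its start. SYT17 had a log2 fold change of 0.17 and did not pass. SYT10 was listed at 0 counts in all 6 samples. The 11 relatives with C2 domains include the synaptotagmin-like proteins, the extended synaptotagmins and the DOC2 proteins. Of these relatives 8 were tested and 0 passed the study's threshold (2 with DESeq2), beside 24.2% of all genes tested. Their median log2 fold change was -0.37. By adjusted p, 2 of these relatives were higher and 4 lower, beside 37.1% and 38.5% of all genes tested.

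Other SNAREs changed in both directions. Of 8 further plasma membrane SNAREs, 7 were tested, with a median log2 fold change of -0.32 against -0.01 for all genes tested. At the study's threshold SNAP29, a soluble relative of SNAP25 that acts in autophagy, rose from 33.8 ± 0.344 to 57.0 ± 0.894 CPM (log2 fold change 0.76). STX4 fell from 59.6 ± 2.74 to 29.7 ± 1.76 CPM (log2 fold change -1.01). Of 6 further vesicle R-SNAREs 4 were tested, with a median of 0.29, and only VAMP3 passed, from 61.6 ± 0.26 to 87.0 ± 1.51 CPM (log2 fold change 0.50, SD and n = 3 for each mean). Without siControl replicate 2 or 3, or without siKMT9α#1 replicate 1 or 2, 0 of these R-SNAREs passed. Among all genes tested 24.2% passed in the main fit.

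All 19 SNAREs of the Golgi apparatus, the endoplasmic reticulum and endosomes were tested, and their median log2 fold change was -0.55. At the study's threshold 4 rose and 8 fell, beside 13.5% and 10.7% of all genes tested. By adjusted p, 6 were higher and 13 lower, beside 37.1% and 38.5% of all genes. The largest positive values were those of GOSR1, a Golgi SNARE (1.26), VTI1A, which acts between endosomes and the Golgi apparatus (1.14), and STX16, a syntaxin of the trans-Golgi network (0.62). The largest negative values were those of USE1, a SNARE of retrograde transport to the endoplasmic reticulum (-1.27), BET1 (-0.90) and STX17, the syntaxin of autophagosomes (-0.89).

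Factors that assemble or prime SNARE complexes passed the study's threshold about as often as the 24.2% of all genes tested, but only on the lower side. Of 24 listed, 18 were tested, and 0 rose and 4 fell, beside 13.5% and 10.7% of all genes tested. Their median log2 fold change was -0.42. UNC13A, the priming factor of synaptic vesicles, went from 31.2 ± 1.2 to 9.70 ± 0.464 CPM (SD, n = 3 each; log2 fold change -1.68). RIMS4, a short relative of the active zone scaffold RIM, had a log2 fold change of -1.71, and NAPB, a neuronal adaptor of the disassembly enzyme NSF, one of -1.0. By adjusted p, 3 were higher and 11 lower, beside 37.1% and 38.5% of all genes tested.

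Of 12 membrane proteins of synaptic vesicles, 6 were tested, and their median log2 fold change was -0.52. SYNGR1, a synaptogyrin of neurons, rose from 5.86 ± 0.654 to 16.6 ± 1.26 CPM (log2 fold change 1.5), and SYNGR2, its relative in other tissues, fell from 216.3 ± 3.84 to 117.8 ± 3.06 CPM (log2 fold change -0.88, SD and n = 3 for each mean). SYNGR3, another synaptogyrin, was lower like SYNGR2, with a log2 fold change of -0.699. SYP (-0.349) and SYN2 (-1.097) were lower too, and these 3 genes are named after their values were seen. By adjusted p, 1 of the 6 was higher and 4 lower, beside 37.1% and 38.5% of all genes tested. No sample had more than 1 count of the vesicle protein SV2B, and for SYN1, a synapsin, the most was 4 counts.

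**Figure D4:**
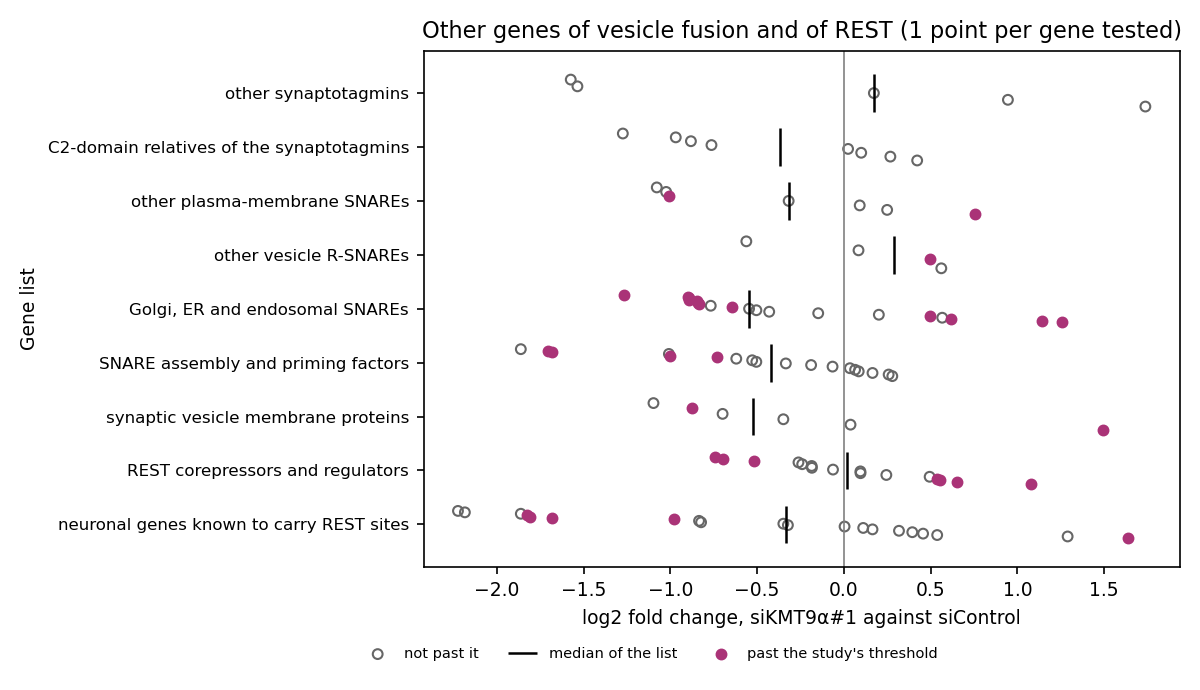
log2 fold change (siKMT9α#1 against siControl) of every gene tested in 9 lists of related genes, with 1 point per gene, filled where it passed the study's threshold, and a bar at the median. The medians lie between -0.55 (SNAREs of the Golgi apparatus, endoplasmic reticulum and endosomes) and 0.29 (other vesicle R-SNAREs), with genes on both sides of 0 in each list.

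REST acts with corepressors and is turned over by dedicated enzymes. All 16 genes listed for this were tested, with a median log2 fold change of 0.02. At the study's threshold 4 rose and 3 fell, beside 13.5% and 10.7% of all genes tested. Among those that rose, the deacetylases HDAC2 and HDAC1 had log2 fold changes of 0.65 and 0.56. RCOR1, which encodes CoREST, went from 51.9 ± 1.05 to 31.0 ± 1.00 CPM (SD, n = 3 each; log2 fold change -0.74). The phosphatases CTDSP1 and CTDSP2, which act on REST, had log2 fold changes of -0.70 and -0.52. At an adjusted p under 0.05, 6 of the 16 were higher and 5 lower, beside 37.1% and 38.5% of all genes tested. Without siControl replicate 2 or 3 the study's threshold was passed by 4 of these genes, and without siKMT9α#1 replicate 2 by 3.

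Neuronal genes known to carry REST elements were on both sides of 0. Of 32 listed, 20 were tested, with a median log2 fold change of -0.34. At the study's threshold 1 rose and 4 fell, a share near the 24.2% of all genes tested (13.5% higher and 10.7% lower). BDNF, a neurotrophin gene, went from 34.0 ± 2.09 to 105.7 ± 5.01 CPM (SD, n = 3 each; log2 fold change 1.64), and the antisense gene BDNF-AS overlaps it. VGF, the gene of a secretory granule peptide precursor, went from 32.2 ± 2.44 to 8.99 ± 0.711 CPM (SD, n = 3 each; log2 fold change -1.82). MAPK8IP2, a scaffold of JNK signalling, had -1.81, and UNC13A, which is also listed as a priming factor, -1.68. In the element search, 9 of the 20 genes with a window had a site with at most 1 mismatch within 2500 bases of the start. Of all genes tested 0.477% had one. Among the genes named in this paragraph only VGF had such a site, and BDNF, MAPK8IP2 and UNC13A had none within that distance. Their place in the list rests on general knowledge, and sites farther away were not searched for them.

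Among the 65 genes tested with such a site near the start, 3 rose and 6 fell at the study's threshold, 13.8% of them against 24.2% of all genes tested, and the median log2 fold change was -0.24. At an adjusted p under 0.05, 20 were higher and 31 lower, beside 37.1% and 38.5% of all genes tested. The highest values were those of SNAP25 at 2.04 ± 0.10 and KCNJ6 at 2.04 ± 0.23 (standard errors), followed by SYT6 at 1.74. KCNJ6, a potassium channel gene with 1 mismatch in its site, had at most 15 counts in siControl. Neither KCNJ6 nor SYT6 passed the study's threshold. The lowest values, larger in size, were those of GDAP1L1 (-3.44), PTPRN (-2.70) and CDK5R2 (-2.52). In siKMT9α#1 these had at most 1.5, 8 and 16 counts, and only PTPRN passed. Of the 15 genes whose site had no mismatch, only SNAP25 was higher at the study's threshold. PTPRN, a membrane protein of secretory granules, was the only one lower (log2 fold change -2.70). SNAP25 was chosen with its fold change known, so its place here and among the 3 that rose is description only. KCNJ6, SYT6, GDAP1L1, PTPRN and CDK5R2 were named after their values were seen. The median of these 15 genes was 0.20.

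Markers of other cell types were read beside these results. Of 14 markers of neurons and neuroendocrine cells, 4 of which are also among the REST-site genes above, 7 were tested. At the study's threshold 0 rose and 3 fell, beside 13.5% and 10.7% of all genes tested. Those that fell were TUBB3 (log2 fold change -0.98), ENO2 (-0.94) and UCHL1 (-0.61). At an adjusted p under 0.05, 1 of the 7 was higher and 6 were lower, beside 37.1% and 38.5% of all genes tested. The higher one was RBFOX3, a marker of mature neurons, from 1.51 ± 0.248 to 2.59 ± 0.536 CPM (SD, n = 3 each; log2 fold change 0.79). CHGA (-2.18), MAP2 (-0.62) and SYP (-0.35) were lower, like the 3 above. RBFOX3, CHGA, MAP2 and SYP were named after their values were seen. The summed level of the 14 genes was 894.0 to 916.9 CPM in siControl and 563.3 to 564.2 CPM in siKMT9α#1, most of it from UCHL1 with means of 663.7 and 435.0 CPM. INSM1, NEUROD1 and ELAVL4 were at 0 counts in all samples, and STMN2 had at most 1 count. The transcription factors INSM1 and NEUROD1, at 0 in both groups, cannot tell the groups apart. Whether the levels of these markers are linked to those of SYT1 and SNAP25 was not tested.

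The simple epithelial markers that fit the label of the cell line were present at a summed level of 4402 to 4886 CPM in siControl and 2943 to 3130 CPM in siKMT9α#1. All 6 were tested, and 4 fell at the study's threshold, beside 10.7% of all genes tested. Among these 4 the log2 fold changes included -2.76 for EPCAM, -1.28 for KRT8 and -0.75 for KRT18. CDH1, which encodes E-cadherin, went the other way from 3.38 ± 0.961 to 8.60 ± 0.962 CPM (SD, n = 3 each; log2 fold change 1.34, adjusted p = 3.11e-07 by edgeR), and KRT7 had a log2 fold change of 0.01. Without siKMT9α#1 replicate 2 the threshold was passed by 2. The 6 fibroblast markers summed to at most 9.35 CPM in any sample, COL1A2 was at 0, and 1 of the 3 tested, LUM, fell (log2 fold change -3.45). The 5 leukocyte markers summed to 81.4 to 88.3 CPM in siControl and 28.9 to 30.2 CPM in siKMT9α#1, nearly all of it from the lysosomal gene CD68, which fell (log2 fold change -1.53), while CD3E was at 0 and PTPRC had at most 2 counts. The part of these marker levels in the results for the 10 members was not tested.

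An siRNA can lower other mRNAs through its seed, bases 2 to 8 of the guide strand. The letters complementary to the seed of siKMT9α#1, ACATTCA, were searched in the annotated 3′ UTRs (GRCh37) of the members, which are 1197 (STX1A) to 4913 (SYT7) bases long. None of the 10 held the letters. Of all genes tested with an annotated 3′ UTR 14.1% did, and among genes with 3′ UTRs about as long as a member's the share ran from 8.72% for STX1A to 33.9% for SYT7. Only these letters were searched, in the 3′ UTR of a single annotated transcript per gene. Whether the siRNA acted on mRNAs other than that of N6AMT1 was not tested.

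The genes whose profile over the 6 samples was nearest to that of SYT1 were sought by the Euclidean distance of log2 CPM centred on each gene's mean, among 13085 genes with a mean of at least 1 CPM. These were AXL, a receptor tyrosine kinase (distance 0.36), HCAR2, the niacin receptor (0.48), ST6GAL2, a sialyltransferase (0.51), HAVCR1, a membrane receptor known from kidney injury (0.58), and the long noncoding RNA LINC00707 (0.92). AXL had 18.5 ± 0.214 CPM in siControl and 311.9 ± 7.96 CPM in siKMT9α#1 (SD, n = 3 each). The reads of HCAR2 may be shared with its near-identical neighbour HCAR3. HCAR2 had at most 4 counts in a siControl sample and met the mean of 1 CPM only through siKMT9α#1 (0.181 against 6.02 CPM). Its log2 fold change was 4.96, against 4.10 for SYT1. The log2 CPM used for the distance include a prior count of 2, which narrows differences at such low counts. None of the 5 is a synaptotagmin or a SNARE. Since the 6 samples form only 2 groups, nearness here reflects mainly a difference between the groups of like size on that scale.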

How the data were processed

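RNA-Seq was analysed in 6 A549 samples, 3 per group, which the labels call biological replicates. P-values measure the spread between these samples. Reads had been aligned with STAR (build hg19) and counted over RefSeq transcripts by HOMER's analyzeRepeats. The authors deposited estimated counts per transcript that are not normalized (36.4% are not whole numbers, and all are multiples of 0.5). HOMER's counting options and the library type are not given in the sources used here. The table also holds the authors' own fold changes (a ratio), p-values and adjusted p-values from edgeR, which were not used. Of 38767 entries, 1182 without symbol and counts were left out.

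Estimated counts of the 1 transcript per symbol with the largest total were rounded and fitted over all genes with edgeR 4.0.16 (R 4.3.3; TMM, filterByExpr, two-sided quasi-likelihood F test, Benjamini-Hochberg adjustment over 13877 genes). CPM were scaled by TMM factors. The fit was tested on simulated data. No 2 samples agreed within sampling noise. The 10 members and the gene lists, which were written from general knowledge, were chosen with earlier results of these data known. Beside the members and N6AMT1, up to 3 genes per list and direction were named by size of log2 fold change among those past the study's threshold with groups that did not overlap and a mean of at least 1 CPM, as were the 5 profiles nearest to SYT1 and markers at or near 0. Some results under this rule are not reported here. No set test was run. Positions, GC contents and 3′ UTRs came from GENCODE on GRCh37, which matched 22224 of the 23180 symbols. Counting precision follows from the counts printed.

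The alternatives were a fit by DESeq2 1.42.0, the likelihood-ratio test of edgeR, RLE factors or plain library sizes for scaling, a filter of 10 counts per sample or none, other transcripts, a block for replicate number, and fits without 1 sample. Offsets for transcript GC content and length, alone or together with that block, were chosen after seeing the data.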

Additional observations from a re-analysis of the deposited data

How the results depend on the processing

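None of the 9 members tested changed direction under any alternative run. Leaving out each sample in turn gave log2 fold changes of 3.99 to 4.21 for SYT1, -0.79 to -0.64 for SYT7, -1.60 to -1.08 for SYT12, 0.35 to 0.41 for SYT13, 1.97 to 2.15 for SNAP25, -0.68 to -0.60 for SNAP23, -0.83 to -0.76 for VAMP2, 0.26 to 0.37 for STX1A and 0.24 to 0.34 for REST. The library size alone moved SYT13 to 0.27, SNAP23 to -0.74, VAMP2 to -0.91 and REST to 0.18. Offsets for GC content and length, added after seeing the data, gave -0.91 for SYT7, 0.14 for SYT13, -0.56 for SNAP23, -0.70 for VAMP2, 0.50 for STX1A and 0.038 for REST. With the replicate block as well they gave -0.92, 0.14, -0.56, -0.70, 0.51 and 0.036. SYT12 has no value when 10 counts are required in every sample. For 37 other genes named by the rule above, all 552 alternative values kept direction and side of the adjusted p threshold. All 37 had passed the study's threshold in the main fit, so this outcome was largely fixed in advance. Genes named outside that rule, such as SYT6, RBFOX3, CDH1 and KCNJ6, are not among them.

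The study's threshold was passed by 3357 genes, and by 5962 with the likelihood-ratio test, 6070 without a filter, 5887 with the offsets and the replicate block and 6767 with every transcript tested (2326 to 4084 without 1 sample). At an adjusted p under 0.05 there were 10492, and 18897 with every transcript (10003 to 10312 without 1 sample). Of the other synaptotagmins 0 passed the study's threshold, but 1 with DESeq2, 2 with the likelihood-ratio test, 2 without a filter and 1 with the offsets and block. Of the C2-domain relatives 0 passed, but 2 under each of these 4 settings (0 to 2 without 1 sample, 2 without siControl replicate 1). Of the vesicle R-SNAREs 1 passed, 0 with the library size alone, 2 with the likelihood-ratio test, 2 without a filter and 0 with the replicate block (0 to 1 without 1 sample). Of the REST corepressors 7 passed, and 2 with the replicate block (3 to 8 without 1 sample). Of the neuronal REST-site genes 5 passed, 11 with the likelihood-ratio test, 11 without a filter and 9 with the offsets and block. Of the neuronal markers 3 passed, and 5 with the offsets and block. Of the fibroblast markers 1 passed, and 0 with at least 10 counts in every sample or without siKMT9α#1 replicate 2 (0 to 1 without 1 sample). Of the epithelial markers 4 passed (2 to 5 without 1 sample). The causes were not tested.

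Same-numbered samples did not deviate together (r of -0.08, 0.02 and -0.08 across genes for replicates 1 to 3), so the replicate number was not taken as pairing, and the block lowered the count at the study's threshold to 2342. Depth limits SYT11 and SYT12 most.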
